A study of Rattus norvegicus with 12 samples.

Results

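The let-7 guide strands and miR-98-5p are the 9 mature miRNAs let-7a, b, c, d, e, f, g and i-5p and miR-98-5p. In the tables their names carry the prefix rno- for rat. They were taken by name from the 685 miRNA names of the tables, and all 9 were among the 628 names that passed the filter on low counts. Small RNA was sequenced from primary cortical neurons of Sprague Dawley rats, dissociated at embryonic day 17 and given lentivirus at 10 days in vitro, with lysis at 14 days. The lentivirus expressed a short hairpin RNA (shRNA) against Stau2 (shStau2), which encodes the double-stranded RNA-binding protein Staufen2, an shRNA against Pum2 (shPum2), which encodes the RNA-binding protein Pumilio 2, or a non-targeting shRNA (shNTC). Each group had 4 libraries, numbered 1 to 4 as biological replicates, and every group, shNTC included, carried lentivirus and an shRNA. By the design text shNTC was the reference and shPum2 a further control for background changes that an shRNA brings.

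The let-7 miRNAs were found in Caenorhabditis elegans as timers of development, and in mammals they accumulate as progenitors leave the cell cycle and become neurons. The protein LIN28 blocks the maturation of let-7 precursors, and mature let-7 in turn represses Lin28 mRNAs and growth genes such as Hmga2, Myc and the Ras genes. A miRNA hairpin is cut into a pair of strands: the guide (here the 5p strand) is loaded into an Argonaute protein, and the passenger (3p) is mostly discarded.

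All 9 members share the seed, bases 2 to 8 from the 5′ end, which chiefly decides the mRNAs that a miRNA pairs with. The RefSeq table of assembly GRCr8 held all 9 mature sequences, at 12 loci, and among its 693 mature names no other had this seed. They are shown, 5′ to 3′ with the seed in capitals, because the bases after the seed are all that separates the members in sequencing, apart from the first base of let-7d:
rno-let-7a-5p: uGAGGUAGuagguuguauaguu
rno-let-7b-5p: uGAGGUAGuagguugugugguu
rno-let-7c-5p: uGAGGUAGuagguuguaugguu
rno-let-7d-5p: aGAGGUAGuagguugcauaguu
rno-let-7e-5p: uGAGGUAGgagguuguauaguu
rno-let-7f-5p: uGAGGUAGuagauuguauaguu
rno-let-7g-5p: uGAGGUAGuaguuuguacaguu
rno-let-7i-5p: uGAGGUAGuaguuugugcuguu
rno-miR-98-5p: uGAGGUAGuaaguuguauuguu

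All are 22 bases long. Of the 36 pairs, 4 differ at 1 base: let-7a from let-7c (A19G), from let-7e (U9G) and from let-7f (G12A), and let-7b from let-7c (G17A), with positions counted from the 5′ end. Counts of these neighbours may have been exchanged in the authors' assignment, and their separate levels are uncertain to that extent. The strand let-7i-5p is farther from most others: it differs from let-7a-5p at 4 bases (G12U, A17G, U18C and A19U) and from its nearest relative let-7g-5p at 2 (let-7g to let-7i A17G and A19U).

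The loci matter for reading the values, since a single mature name can sum several hairpins. In GRCr8, let-7a-5p came from Mirlet7a1 on chromosome 17 and Mirlet7a-2 on chromosome 8, let-7c-5p from Mirlet7c1 on chromosome 11 and Mirlet7c2 on chromosome 7, and let-7f-5p from Mirlet7f-1os on chromosome 17 and Mirlet7f2 on chromosome X. The remaining 6 members each had 1 locus. Mirlet7a1, Mirlet7f-1os and Mirlet7d neighbour each other, as do Mirlet7c2 and Mirlet7b, and Mirlet7f2 and Mir98, which both lie within the span of the ubiquitin ligase gene Huwe1. The gene Mirlet7g lies within the spans of Wdr82 and Rpl29, and Mirlet7i has no other miRNA gene within 50 kilobases. The counts themselves were made with build Rnor 6.0, per the submitters' processing notes, so these positions place the genes and not the counted sequences.

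The family made up a like share of the miRNA counts in all 3 groups. Its 9 members together took 20.5, 21.5, 21.8 and 20.7% of the miRNA counts in the shStau2 libraries 1 to 4. In the shPum2 libraries they took 21.4, 21.4, 20.7 and 22.2%, and in the shNTC libraries 22.8, 20.2, 21.96 and 20.3%. The ranges overlapped among all 3 groups, with means of 21.1 ± 0.635% in shStau2, 21.5 ± 0.615% in shPum2 and 21.3 ± 1.25% in shNTC (SD, n = 4 each). Library totals lay between 3836349 and 5415763 counts, and a member had between 3728 and 418426 counts in a library. The spread between libraries, with coefficients of variation of 2.21 to 14.4% within a group, and not counting error therefore set the precision.

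Among the members, let-7c-5p stood highest and miR-98-5p lowest in each group. Levels are given as CPM, counts relative to the library total, after TMM scaling, a correction for library composition, and all members have the same length. Efficiency of ligation differs between miRNAs, so the order describes these libraries and may differ from that of molecules in the cell. In shStau2, let-7c-5p averaged 76509 ± 7145 CPM and miR-98-5p 927 ± 68.6 CPM. The corresponding means were 74386 ± 1982 and 1000.0 ± 132 CPM in shPum2, and 73972 ± 8467 and 974 ± 112 CPM in shNTC. Below let-7c-5p came let-7a, let-7b and let-7f-5p, whose ranges overlapped and whose order changed between groups: let-7b-5p was the highest of them in shStau2 (33856 ± 3047 CPM) and in shPum2 (32200 ± 935.7 CPM), and let-7f-5p in shNTC (31749 ± 2501 CPM). From there down the order was the same in each group: let-7i, let-7e, let-7g, let-7d and miR-98-5p. The ranges of let-7e-5p and let-7g-5p overlapped in shPum2 and in shNTC, although let-7e-5p was above let-7g-5p in 4 of 4 libraries of each group. Among the means, rno-let-7a-5p had 33149 ± 1467 CPM in shStau2, 29731 ± 656 CPM in shPum2 and 30797 ± 3190 CPM in shNTC (SD, n = 4 each).

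**Figure D1:**
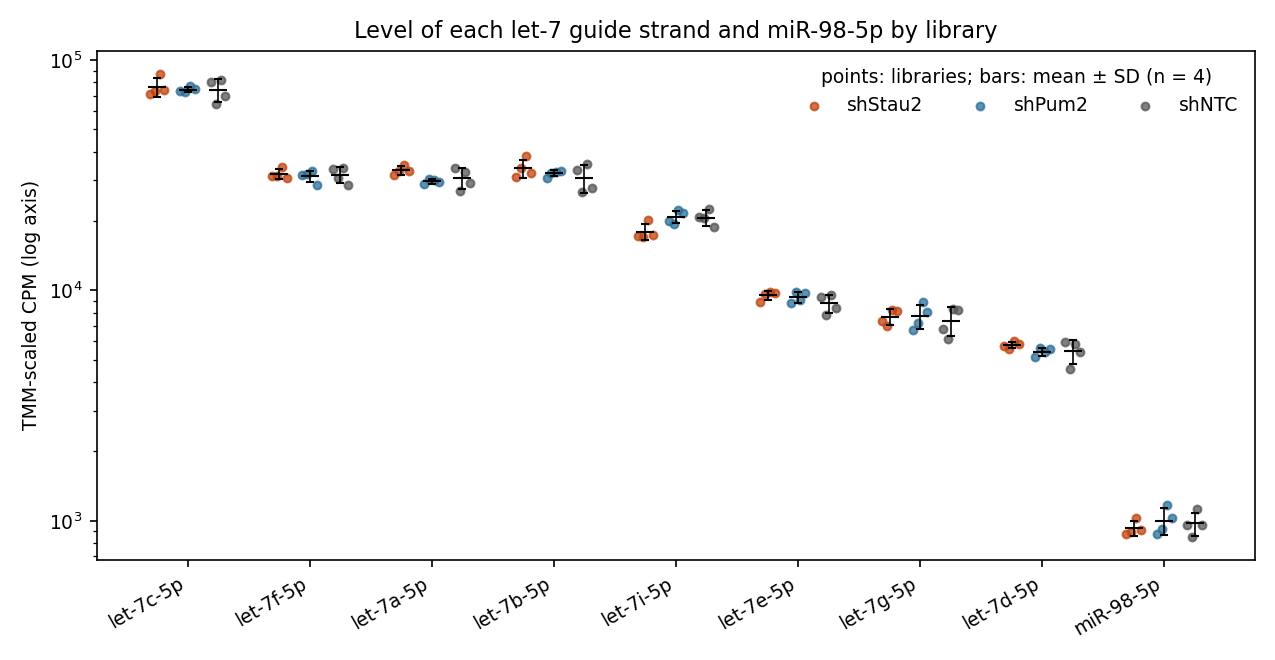
TMM-scaled CPM (log axis) of the 9 members in the 12 libraries; points are libraries, black bars are mean ± SD of 4 libraries per group. The mean of let-7c-5p in shNTC is 73972 CPM and that of miR-98-5p 974 CPM, and the groups overlap for every member except let-7a-5p between shStau2 and shPum2.

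Stau2 deficiency is addressed by shStau2 against shNTC, where let-7i-5p had the lowest p of the 9 members and was the 1 member called, and that with the replicate block only. After TMM scaling rno-let-7i-5p had 17242, 17120, 20182 and 17324 CPM in the shStau2 libraries 1 to 4, against 20752, 20557, 22586 and 18770 CPM in the shNTC libraries 1 to 4. It was lower in shStau2 than in shNTC in each of the 4 pairs that share a replicate number, while the groups overlapped, since shStau2 library 3 stood above shNTC library 4. The log2 fold change was -0.20 (SE 0.079, 95% interval -0.37 to -0.03). In edgeR's quasi-likelihood test of 628 miRNAs without a replicate block it did not pass (unadjusted p = 0.0213, adjusted p = 0.298). Libraries with the same number deviated together, so a fit with the replicate number as a block was run as well, and there let-7i-5p fell by 0.20 on the log2 scale (SE 0.059, 95% interval -0.33 to -0.08, edgeR adjusted p = 0.047). With the block 6.21% of all miRNAs passed (2.39% higher and 3.82% lower), against 0.318% without it, and of the 9 members 1 passed with the block and 0 without. In TMM-scaled CPM 0 of the 9 members had shStau2 and shNTC libraries that did not overlap, against 9.55% of all miRNAs. The call for let-7i-5p lay close to the threshold and ended when any of the 4 replicate numbers was left out (edgeR adjusted p = 0.16, 0.139, 0.139 and 0.0958 without number 1, 2, 3 and 4), and also with upper-quartile factors (0.0736).

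**Figure D2:**
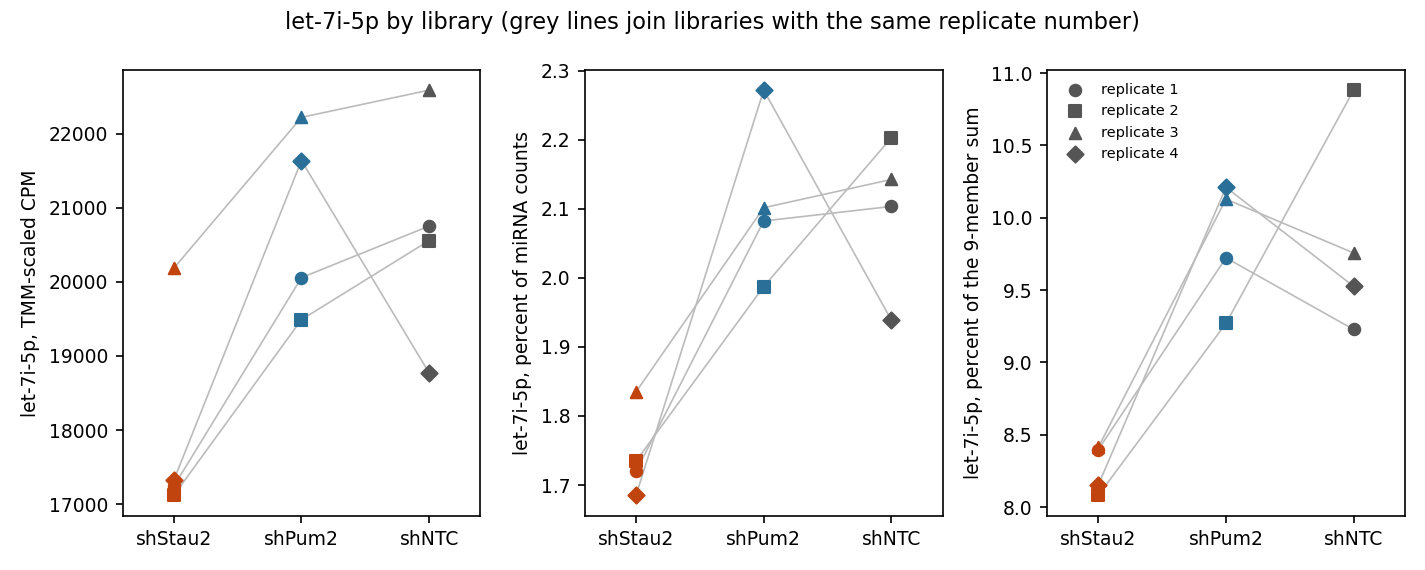
Level of let-7i-5p by library as TMM-scaled CPM, as percent of all miRNA counts and as percent of the summed counts of the 9 members; the y axes do not start at 0, and grey lines join libraries with the same replicate number. In the first panel shStau2 library 3 (20182 CPM) lies within the range of the other groups, and in the other panels all 4 shStau2 libraries lie below both other groups.

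Shares within a library use its own total and no scaling factor. Without scaling factors, the median log2 fold change of shStau2 over all miRNAs was -0.06 against shNTC and -0.05 against shPum2. With TMM these medians were 0.00 and 0.01, so shares of the miRNA counts leaned lower in shStau2 as a whole. As a percent of all miRNA counts, let-7i-5p stood at 1.68 to 1.83% in shStau2, 1.99 to 2.27% in shPum2 and 1.94 to 2.20% in shNTC. All 4 shStau2 libraries thus lay below all 8 others. On this measure 9.87% of all miRNAs did not overlap, in either direction, between shStau2 and shNTC, and 6.69% between shStau2 and shPum2. As a percent of the summed counts of the 9 members it was 8.26 ± 0.169% in shStau2, 9.83 ± 0.432% in shPum2 and 9.85 ± 0.723% in shNTC. The highest shStau2 library had 8.41%, and the lowest libraries of shPum2 and shNTC had 9.27 and 9.23%. On that share 1 of the 9 members (11.1%) did not overlap between shStau2 and shNTC, 2 (22.2%) between shStau2 and shPum2, let-7a-5p and let-7i-5p, and 0 between shPum2 and shNTC. Shares of the 9-member sum depend on each other, since a lower share of 1 member goes with higher shares among the others. They exist for the 9 members only, so no share over all miRNAs can stand beside these counts. No test was made on these shares.

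None of the other 8 members passed in shStau2 against shNTC, whether edgeR's test had the block or not. The largest value among them was that of let-7b-5p, which had 31168, 33854, 38118 and 32284 CPM in the shStau2 libraries 1 to 4 and 33222, 26622, 35411 and 27910 CPM in the shNTC libraries 1 to 4. Its groups overlapped, and the log2 fold change was 0.14 (SE 0.092, adjusted p = 0.632). For let-7a-5p it was 0.11, for let-7e-5p 0.12, for let-7d-5p 0.09, for let-7g-5p 0.06, for let-7c-5p 0.05 and for let-7f-5p 0.01. For miR-98-5p, whose hairpin lies beside let-7f-2, it was -0.07. Without scaling factors 3 of the 9 members changed sign, so that no direction can be given for the family as a whole. The median of the 9 was 0.06, beside 0.00 over all 628 miRNAs. Over the 9 members the 95% intervals ran from -0.37 to 0.33 on the log2 scale without the block and from -0.33 to 0.29 with it. In these values shNTC library 2 was the lowest of the 12 for let-7a, b, c, d, e and g-5p and for miR-98-5p, and without it 3 of the 9 log2 fold changes had the opposite sign.

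The comparison of shStau2 with shPum2 set both active shRNAs side by side and shares the shStau2 libraries with the comparison above. In shPum2 libraries 1 to 4 let-7i-5p had 20056, 19490, 22218 and 21636 CPM, and it was lower in shStau2 in 4 of 4 pairs. The log2 fold change was -0.21 without the block (SE 0.079, edgeR adjusted p = 0.451) and -0.22 with it (SE 0.059, 95% interval -0.34 to -0.09, edgeR adjusted p = 0.0407). With the block 3.98% of all miRNAs passed (1.59% higher and 2.39% lower), against 0.478% without it, and of the 9 members let-7i-5p was the 1 that passed. The call held without replicate number 2 (edgeR adjusted p = 0.0231) and ended without number 1 (0.115), 3 (0.174) or 4 (0.198).

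A second member stood apart in this comparison, in the opposite direction. The levels of let-7a-5p were 31651, 32821, 35166 and 32957 CPM in shStau2 libraries 1 to 4 and 28894, 30358, 30131 and 29541 CPM in shPum2 libraries 1 to 4. All 4 shStau2 libraries were above all 4 of shPum2, a separation that 4.94% of all miRNAs showed in either direction. The log2 fold change was 0.16 with and without the block, and it did not pass (edgeR adjusted p = 0.524 without the block and 0.176 with it). In shNTC let-7a-5p ranged from 27100 to 34140 CPM and spanned both groups. With upper-quartile factors and the block, a combination added after the data were seen, let-7a-5p passed (log2 fold change 0.19, edgeR adjusted p = 0.0464) and let-7i-5p did not (0.0942).

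In shPum2 against shNTC, which shares the shNTC libraries, edgeR's test called 0 of the 9 members, both with the block and without, and 0 had an unadjusted p under 0.05. DESeq2 called 0 as well. Of all miRNAs 0.159% passed with the block and 0% without it. The libraries of both groups overlapped for all 9 members, in CPM and in percent of miRNA counts, where 1.11% and 1.27% of all miRNAs did not overlap. The values were small: let-7i-5p had a log2 fold change of 0.01, miR-98-5p of 0.04, and the 9 ran from -0.05 for let-7a-5p to 0.09 for let-7e-5p. The 95% intervals of the 9 ran from -0.21 to 0.30.

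**Figure D3:**
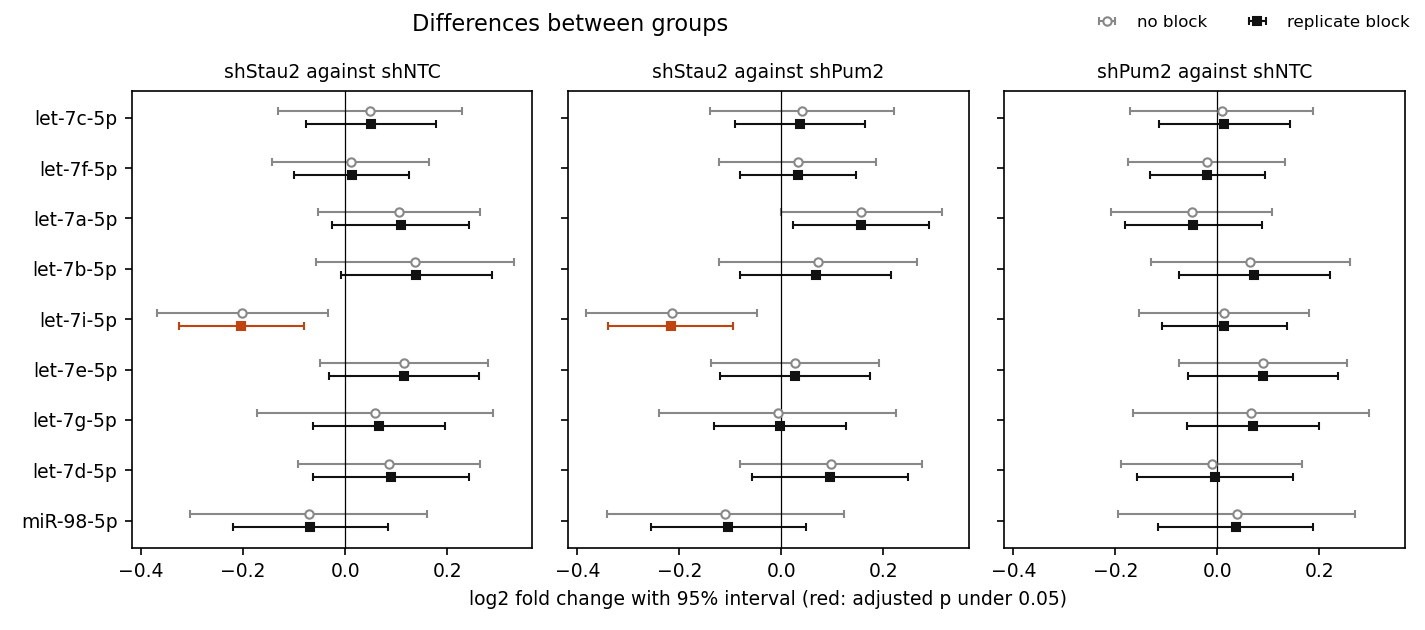
Log2 fold change with its 95% interval for each member in 3 comparisons, without (open circles) and with (squares) the replicate block; red marks an adjusted p under 0.05 over all miRNAs. Only let-7i-5p is red, at -0.20 and -0.22 with the block, in shStau2 against shNTC and against shPum2.

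Markers of other cell types were measured beside these values. The 8 neuronal marker miRNAs, such as miR-124-3p and miR-128-3p, had counts in every library and summed to 115565 to 129009 CPM in shStau2, 106873 to 129883 CPM in shPum2 and 109358 to 126880 CPM in shNTC. Most of this sum was miR-128-3p, with a mean of 91251 CPM, so the sum says little about the other markers. Of the 8, 4 had log2 fold changes below 0 in shStau2 against shNTC. None was called by edgeR in any comparison, with the block or without. The 4 astrocyte markers (miR-21-5p, miR-23a-3p, miR-24-3p and miR-27a-3p) summed to 4668 to 6125 CPM in shStau2, 5486 to 7574 CPM in shPum2 and 6799 to 9532 CPM in shNTC. With the block edgeR's test called 3 of these 4 lower in shStau2 against shNTC, 0 in shStau2 against shPum2 and 1 in shPum2 against shNTC. In the same order, 3.82, 2.39 and 0.159% of all miRNAs were called lower with the block. Without the block 0 of the 4 were called in any comparison. The log2 fold changes of all 4 were below 0 in each comparison. None of the 4 was at 0 in any library, so some signal of this kind was present throughout. The 5 blood or microglia markers tested summed to 142 to 275 CPM in shStau2, 223 to 336 CPM in shPum2 and 199 to 398 CPM in shNTC, with 1 and 2 of them lower with the block in shStau2 against shNTC and against shPum2. The 7 vessel or mesenchyme markers summed to 572 to 832 CPM in shStau2, 637 to 1103 CPM in shPum2 and 664 to 996 CPM in shNTC. With the block 1 of these 7 was called lower in shStau2 against shNTC and 0 in the other comparisons, and 7 of 7 were below 0 in shStau2 against shPum2. Without the block edgeR called 0 of these 7 and 0 of the 5 blood or microglia markers in any comparison. Of the 4 oligodendrocyte and 5 choroid or ciliated cell markers edgeR called 0 in any comparison, whether the block was used or not. Of the 2 blood or microglia markers not tested, miR-142-5p was at 0 in 4 libraries and miR-451-5p in 8. The part of these markers in the let-7i-5p values was not tested, and fewer cells of a type and less RNA per cell cannot be told apart in bulk samples.

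Some members differed between replicate numbers across all 3 groups. Of the 9, let-7g-5p and miR-98-5p passed in edgeR's test across the 4 numbers (adjusted p = 0.00298 and 0.021), as did 26.1% of all miRNAs. For let-7g-5p the 3 libraries of number 3 had 8252 to 8869 CPM and those of number 4 had 8079 to 8205 CPM. Those of number 1 had 6760 to 7354 CPM and those of number 2 had 6172 to 7184 CPM, so that numbers 3 and 4 did not overlap with numbers 1 and 2, whichever shRNA was used. The miR-98-5p libraries of number 3 had 1028 to 1175 CPM, and all others were between 854 and 1024 CPM. The call for let-7g-5p held without each number in turn (adjusted p = 0.00482 to 0.0245), while that for miR-98-5p ended without number 1 (0.0523) or 3 (0.546). Number 3 was also the highest on average for the other 7 members, none of which passed, with let-7c-5p at 82054 ± 4941 CPM there (SD, n = 3) and adjusted p = 0.0891.

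**Figure D4:**
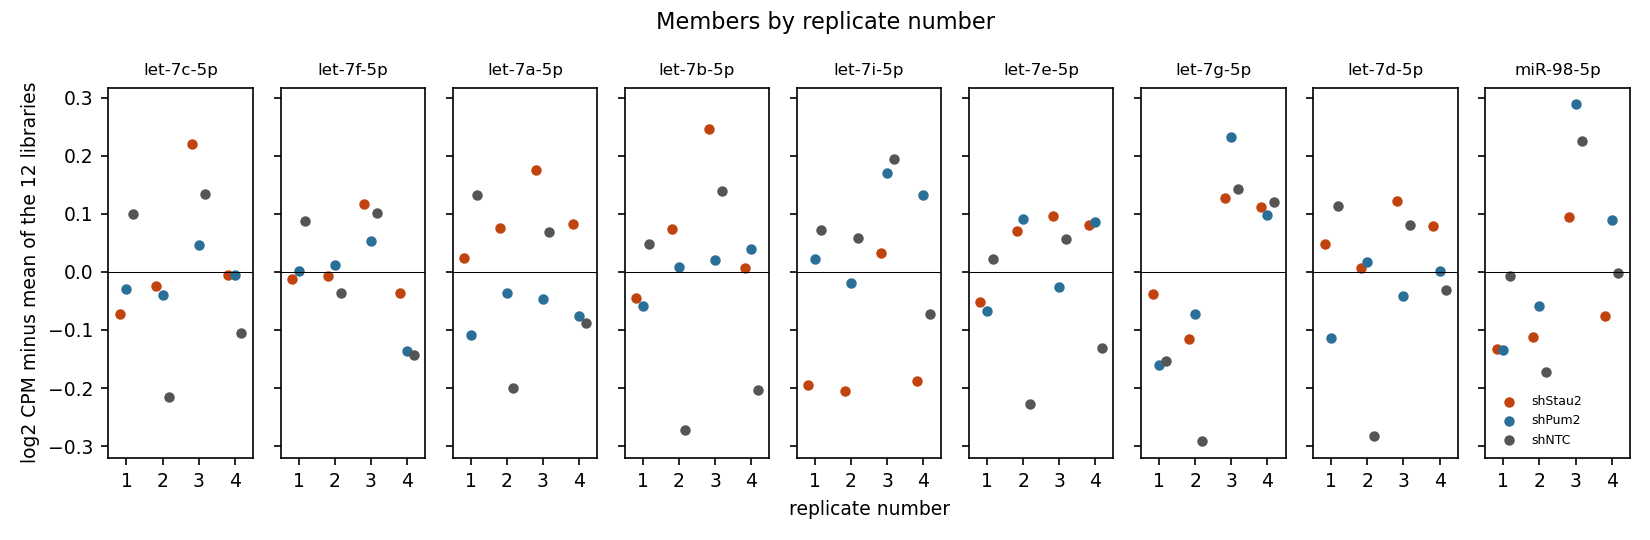
Log2 CPM of each member minus its mean over the 12 libraries, by replicate number and coloured by group. For let-7g-5p numbers 3 and 4 lie above numbers 1 and 2 in each group; for let-7i-5p the shStau2 point lies lowest within each number.

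The passenger strands of the same hairpins were far scarcer. The tables held 11 such names, among them a combined name for let-7a-1-3p and let-7c-2-3p, whose sequences are identical, and the 3p strands of let-7a and let-7c were therefore summed. In shNTC the 5p strand outnumbered the 3p strand 1027 to 1125 times for let-7f and 32.4 to 50.7 times for let-7d, the extremes among the 8 numbers. For let-7i the ratio was 232 to 286 in shStau2, 230.5 to 396 in shPum2 and 249 to 342 in shNTC, with overlap among the groups. Its hairpin is shown with both mature strands in capitals (GRCr8 chr7:60527877-60527961, minus strand):
Mirlet7i: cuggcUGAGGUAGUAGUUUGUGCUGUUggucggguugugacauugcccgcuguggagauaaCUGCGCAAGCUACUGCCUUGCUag

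For let-7i the log2 ratio of 5p to 3p was lower by 0.26 in shStau2 than in shNTC, with means of 7.99 ± 0.124 in shStau2 and 8.25 ± 0.210 in shNTC (SD, n = 4 each; two-sided exact permutation p = 0.114). The passenger let-7i-3p averaged 70.6 ± 8.19 CPM in shStau2, 76.8 ± 16.4 CPM in shPum2 and 68.8 ± 15.5 CPM in shNTC. Over 8 numbers and 3 comparisons, 0 of 24 exact permutation tests had an unadjusted p under 0.05 (lowest p = 0.0857, lowest adjusted p = 0.81), where the smallest p that 4 against 4 allows is 0.0286. A single ratio at that smallest p could not have passed after adjustment over the 24 tests, so the adjusted values say little about any 1 ratio. Of the 11 passenger names edgeR called 0 in every comparison, both with the block and without. The lowest adjusted p was that of let-7f-1-3p, at 27.4 ± 3.14 CPM in shStau2 and 20.5 ± 4.29 CPM in shPum2 (log2 fold change 0.41, edgeR adjusted p = 0.0814 with the block).

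Some let-7 hairpins share a transcript with miR-99, miR-100 and miR-125 hairpins, the last being mammalian relatives of the worm timer lin-4. Of 11 such strands 2 rose with the block in shStau2 against shNTC and 2 against shPum2, miR-125a-5p and miR-125b-5p each time, where 2.39% and 1.59% of all miRNAs rose, and 0 passed without the block. The strand miR-125a-5p, from the cluster of let-7e, had 22204 to 24928 CPM in shStau2, 18706 to 20189 CPM in shPum2 and 16537 to 19649 CPM in shNTC, and its shStau2 libraries overlapped with no other. In either direction 9.55% of all miRNAs did not overlap between shStau2 and shNTC, and 4.94% between shStau2 and shPum2. Its neighbour let-7e-5p had 8873 to 9830 CPM in shStau2, 8780 to 9803 CPM in shPum2 and 7853 to 9564 CPM in shNTC, with overlap among all groups. With the block the log2 fold change in shStau2 against shNTC was 0.32 for miR-125a-5p (SE 0.062, edgeR adjusted p = 0.0038) and 0.12 for let-7e-5p (SE 0.070, edgeR adjusted p = 0.357). The third strand of this cluster, miR-99b-5p, had 0.20 and did not pass (adjusted p = 0.149). From the clusters of let-7a-2 and let-7c-1, miR-100-5p had -0.22 and miR-99a-5p -0.16, neither past the threshold with the block (adjusted p = 0.124 and 0.195). The strand miR-125b-5p, with a hairpin in each of these clusters, went the other way at 0.25 (SE 0.057, edgeR adjusted p = 0.0147 with the block). Differences between the strands of a cluster were not tested.

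The tables also held 4 names that read let-7 guide strands backwards, miR-3596a, b, c and d. Each is the exact reverse complement of a stretch of 1 member and of no other. They are shown, with the bases opposite the let-7 seed in capitals, because their counts bear on what the let-7 counts hold:
miR-3596a: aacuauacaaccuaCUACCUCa
miR-3596b: aacuaugcaaccuaCUACCU
miR-3596c: acuauacaaccucCUACCUCa
miR-3596d: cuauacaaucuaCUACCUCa

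In GRCr8 their genes overlap those of let-7a-2, let-7d, let-7e and let-7f-1 on the opposite strand. They were not rare: miR-3596a had 9826 to 14773 counts in a library, more than miR-98-5p. Its count was 8.32 ± 0.509% of that of let-7a-5p in shStau2, 8.90 ± 0.472% in shPum2 and 8.56 ± 0.261% in shNTC. Over all 12 libraries miR-3596b stood at 4.74 to 5.48% of let-7d-5p, miR-3596c at 3.58 to 3.98% of let-7e-5p and miR-3596d at 2.44 to 2.77% of let-7f-5p. Each pair thus kept its own proportion, and the ranges of the 4 pairs did not overlap. The sources used here do not say whether the authors' counting used strand, and without it reads of a guide and of its antisense name cannot be told apart. None of the 4 was called by edgeR in any comparison, whether the block was used or not. Adding their counts to those of the let-7 partners left 0 members past the threshold in each comparison without the block. That fit was run without the block only, where 0 members passed before the addition as well, and let-7i-5p has no such partner. It therefore cannot show whether antisense reads bear on the calls.

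**Figure D5:**
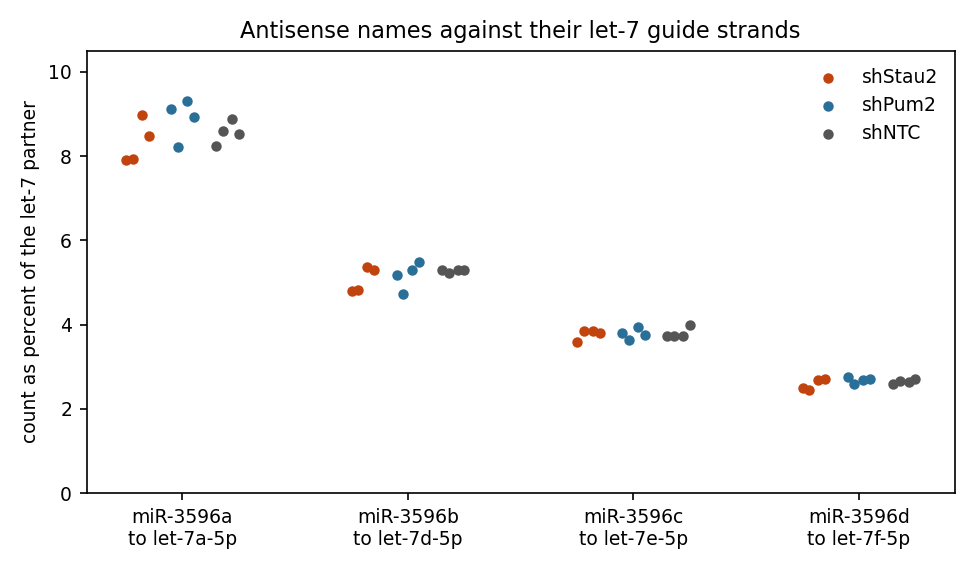
Count of each antisense name as a percent of the count of its let-7 guide strand; points are libraries. The 4 pairs occupy separate bands, from about 2.6% for miR-3596d to about 8.6% for miR-3596a, with the 3 groups overlapping in each.

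Among the other miRNAs with at least 10 CPM, those whose log2 CPM over the 12 libraries followed the mean of the 9 members most closely were miR-3596a, miR-674-5p, miR-3596b, miR-3596c and miR-122-5p. In that order Pearson's r was 0.91, 0.85, 0.84, 0.78 and 0.76, given as a description, since the libraries share their scaling and their replicate numbers. Without the 2 libraries farthest from the median it was 0.83, 0.73, 0.64, 0.50 and 0.92, so that miR-122-5p was the highest of these 5 and miR-3596c the lowest. The 5 came from 439 candidates, and 3 of them are antisense names of let-7 strands.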

How the data were processed

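The authors deposited 1 table per library, with whole-number counts for 805 small RNA names (685 miRNAs and 120 piRNAs), not normalised. Per the labels' protocols, RNA was isolated in batch with a miRNeasy kit and libraries carried unique molecular identifiers. The sources used here do not give the aligner, the counter, the use of strand, or whether molecules or reads were counted. Where reads were counted, amplified copies would add to the apparent depth.

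The 685 miRNA names were filtered with filterByExpr by group, which removed 57, and tested with edgeR 4.0.16 in R 4.3.3 (TMM, robust quasi-likelihood, 12 libraries in a joint fit by group). Two-sided p-values were adjusted over all 628 miRNAs by the Benjamini-Hochberg method and called at 0.05. The 12 same-number pairs of libraries had deviations from their group means that correlated at r = 0.36 to 0.57 across miRNAs, against -0.41 to 0.14 for 36 other pairs, so the numbers pair the libraries. The labels call the samples biological replicates without saying what a number marks. Where libraries of a group came from 1 culture, p-values measure the spread between these samples, which may be technical. Fits with that block are given where they change a call. Strand ratios used a pseudocount of 0.5 and exact permutation tests (SciPy 1.17.1). Alternatives included DESeq2 1.42.0, other scaling factors, no filter and libraries left out. The scripts were tested on simulated data for shStau2 against shNTC, with miRNAs of all levels. Without the block 2% of simulated 1.2-fold and 2.04% of 0.8-fold changes were called, and with it 32 and 38.8%. Of unchanged miRNAs 0% and 0.713% were called. Small changes were thus mostly missed without the block, and 0 calls there do not show that levels were equal. All 9 members are named, with the passenger strands, cluster partners, antisense names and the 5 miRNAs most alike over the libraries. The members and lists were chosen with earlier results of these data known, and the antisense names after their counts were seen. The Stau2 and Pum2 mRNAs were not analysed here.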

Additional observations from a re-analysis of the deposited data

Results flagged for a closer look

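Of 66 groups of 4 values examined, 5 held a library far from the other 3, where chance gives about 1 in 20. In shStau2, let-7i-5p had 20182 CPM in library 3 and 17120 to 17324 CPM in the others, and number 3 was the highest for let-7i-5p in shPum2 and shNTC too. Without that library the log2 fold change of let-7i-5p was -0.26 against shNTC and -0.28 against shPum2 (edgeR adjusted p = 0.298 and 0.317, no block).

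The ratio of 5p to 3p counts of let-7d was 43.1 in shPum2 library 3, against 37.8 to 38.6 in the other shPum2 libraries. That of let-7b was 168 in shNTC library 3, against 155 to 156 in the others. The count of miR-3596b was 5.23% of that of let-7d-5p in shNTC library 2, against 5.29 to 5.30% in the others, and that of miR-3596c was 3.98% of that of let-7e-5p in shNTC library 4, against 3.73 to 3.74%.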

How the results depend on the processing

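In shPum2 against shNTC 0 members passed under any of the 29 alternatives run. In shStau2 against shNTC and against shPum2, 0 passed in any fit without the replicate block, and leaving out single libraries kept it at 0. With the replicate block 1 member passed in each, let-7i-5p, and likewise with RLE factors, with library totals only and in DESeq2 within the block (1 each). In shStau2 against shPum2, 1 passed with the block and upper-quartile factors, let-7a-5p, and 0 to 1 passed in the block with a replicate number left out. The log2 fold change of let-7i-5p was below 0 in every fit run, at -0.27 to -0.16 against shNTC and -0.28 to -0.18 against shPum2. Between replicate numbers 2 members passed, 1 with library totals only, and 1 to 2 with a number left out (replicate block).

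Counts over all miRNAs moved more. For shStau2 against shNTC they were 2 (0 higher, 2 lower), 3 with upper-quartile factors (1 higher, 2 lower), 3 in the fit of 8 libraries, 1 to 3 with a library left out, 24 in DESeq2, and with the block 39, falling to 5 without number 4. For shStau2 against shPum2 they were 3, 0 with upper-quartile factors or in the fit of 8 libraries, 9 in DESeq2, and with the block 25 (6 to 51 with a number left out). With the block 15 rose and 24 fell in shStau2 against shNTC (7 and 32 with library totals only, 21 and 17 with upper-quartile factors) and 10 rose and 15 fell against shPum2 (5 and 21, and 26 and 14). Between replicate numbers 164 differed, 97 without number 3 and 106 without number 4. The 0 strand-ratio calls and the family shares did not move. With 4 libraries a group, 3 against 4 allows no exact permutation p below 0.0571 and the sign-flip of 4 pairs none below 0.125.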
